A study of Mus musculus with 4 samples.

Results

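The genes described here are 36 mouse genes of glucose use and the hypoxia response: 2 glucose transporters, the enzymes from hexokinase to lactate dehydrogenase, a lactate exporter, regulators of the pathway, and the hypoxia-inducible factor gene Hif1a with targets of the factor. They were chosen by name, with earlier results of these data known. Each of the 36 had 1 row among the 38282 Ensembl gene IDs in both deposited tables. The values come from splenic naive CD4+ T cells of C57BL/6 mice held in culture for 4 days. In the Th0 group (2 libraries, numbered 2 and 3) the cells were cultured under the Th0 condition, a term for activated cells given no lineage-steering cytokines. The Th0+Dopa group (2 libraries, also numbered 2 and 3) had the same condition with dopamine, at a dose and for a time that the sources used here do not state. The question addressed is whether transcripts of these genes differ when CD4+ T cells are cultured with dopamine.

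Glycolysis splits glucose into pyruvate through a fixed series of enzymes, and lactate dehydrogenase then turns pyruvate into lactate, which is exported. Activated T cells are known for raising this flux even where oxygen is at hand. HIF-1, a dimer of HIF-1α (Hif1a) and ARNT, switches on most genes of the pathway along with a set of mitochondrial and stress genes. Its alpha subunit is marked for destruction by prolyl hydroxylases (EGLN proteins) in the presence of oxygen. Activated T cells also stabilise HIF-1α through growth signals.

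HIF-1 binds a short core in DNA, ACGTG or GCGTG, and this core was looked for in the RefSeq promoter windows of the genes (GRCm38.p6, the mm10 build; 250 bases before to 50 after each start, 300 bases in all). The windows below are shown because the genes they belong to mark the range of the results. Bnip3 had the second lowest difference with dopamine and Hk2 the lowest among the enzymes that carry out a step of glycolysis, Pfkfb4 had the highest difference of the 36, and Ldha and Pgk1, added after their values were seen, encode 2 of the most abundant enzymes. Sequences run 5′ to 3′ on the strand of the gene, and capitals mark every match of ACGTG or GCGTG on either strand (CACGT or CACGC when read on the gene's strand).
Bnip3 (chr7:138909457-138909756, minus strand): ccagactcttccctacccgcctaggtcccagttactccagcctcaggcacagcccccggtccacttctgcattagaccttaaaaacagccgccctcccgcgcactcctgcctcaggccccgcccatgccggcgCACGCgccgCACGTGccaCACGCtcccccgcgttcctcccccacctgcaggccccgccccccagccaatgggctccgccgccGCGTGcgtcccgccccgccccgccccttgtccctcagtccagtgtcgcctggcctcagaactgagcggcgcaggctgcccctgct
Hk2 (chr6:82774405-82774704, minus strand): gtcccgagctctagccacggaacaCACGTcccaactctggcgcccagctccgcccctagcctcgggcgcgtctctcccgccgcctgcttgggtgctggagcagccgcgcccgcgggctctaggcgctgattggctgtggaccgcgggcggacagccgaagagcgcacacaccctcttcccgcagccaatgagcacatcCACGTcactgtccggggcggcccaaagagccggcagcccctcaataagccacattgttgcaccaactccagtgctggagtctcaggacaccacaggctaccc
Ldha (chr7:46845554-46845853, plus strand): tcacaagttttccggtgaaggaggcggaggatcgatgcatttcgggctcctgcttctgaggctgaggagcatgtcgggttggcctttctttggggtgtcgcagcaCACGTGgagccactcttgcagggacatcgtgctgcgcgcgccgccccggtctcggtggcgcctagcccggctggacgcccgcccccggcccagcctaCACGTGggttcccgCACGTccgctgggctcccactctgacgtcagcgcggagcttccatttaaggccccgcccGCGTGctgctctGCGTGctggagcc
Pgk1 (chrX:106186850-106187149, plus strand): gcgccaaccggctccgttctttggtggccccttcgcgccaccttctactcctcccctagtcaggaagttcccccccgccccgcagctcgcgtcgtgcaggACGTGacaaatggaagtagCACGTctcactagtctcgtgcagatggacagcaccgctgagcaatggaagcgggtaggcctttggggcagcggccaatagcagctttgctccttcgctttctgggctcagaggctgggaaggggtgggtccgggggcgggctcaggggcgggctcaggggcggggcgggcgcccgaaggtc
Pfkfb4 (chr9:108991652-108991951, plus strand): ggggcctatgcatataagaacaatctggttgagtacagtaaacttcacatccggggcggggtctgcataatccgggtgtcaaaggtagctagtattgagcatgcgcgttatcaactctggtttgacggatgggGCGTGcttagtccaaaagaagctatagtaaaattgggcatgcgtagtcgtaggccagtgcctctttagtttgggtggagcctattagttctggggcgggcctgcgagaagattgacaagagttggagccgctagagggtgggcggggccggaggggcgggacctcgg
The Ldha window shown, 1 of 2 for that gene, held 7 matches, the most of any of the genes with windows. The window of Bnip3 held 5, while those of Hk2 and Pgk1 held 2 each and that of Pfkfb4 1. A CACGTG, which is also the E-box bound by MYC and other factors, counts as 2 overlapping matches, and it occurred 2 times in the Ldha window and 1 time in that of Bnip3. RefSeq windows were found for 33 of the 36 genes, 53 windows in all, and Slc2a3, Bnip3l and Ndrg1 had none. Of these windows 42 (79.2%) held a match, against 63.1% of the 10575 windows of tested genes and 43.8% of all 32851 windows. The 36 include genes chosen as targets of HIF-1, so their share is no independent result about them. Tpi1 and Gpi1 were the 2 genes with windows and no match. A match is a description of the letters and not a site shown to be bound.

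Values are FPKM, a level scaled for transcript length and library depth, so that genes can be set beside each other. Each table holds 1 library per group, so every difference was taken within a table. Differences are on the log2(FPKM + 1) scale, Th0+Dopa minus Th0, as the mean of the 2 pairs ± the standard error (SE) given by limma. That SE borrows from the spread of all tested genes, so it does not show how far apart a gene's own 2 pairs were. The differences were tested with limma over all 11423 genes with a mean of at least 1 FPKM. Genes with an adjusted p below 0.05 are said to have risen or fallen, or to be called. All 36 genes passed this filter, and none was listed at 0 in any library. The lowest value was that of Pfkfb4 in Th0 3 (3.02 FPKM), which by the estimate of depth rested on about 26 fragments. The highest was that of Pkm in Th0 2 (1082 FPKM). In Th0+Dopa 2 and Th0+Dopa 3, Ndrg1 rested on about 28 and 29 fragments and Ankrd37 on about 31 and 37. Whether the 2 libraries of a group stem from different cultures or mice is not stated, so the p-values reflect the spread among these 4 libraries alone, which may be technical.

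FPKM summed to 687066 and 715110 in the Th0 libraries and to 880583 and 794873 in the dopamine libraries, so both sums were higher with dopamine. Fewer genes were above 0 with dopamine (15974 and 16276, against 17833 and 19177 in Th0). Mitochondrially encoded genes held 1.55% and 3.35% of the FPKM with dopamine, against 5.64% and 8.41% in Th0. The part of these library traits in the differences was not tested. Cd4, the marker of the labelled cell type, was at 122 and 123 FPKM in Th0 and 115 and 120 with dopamine, and the 12 T cell markers summed to 1981 to 2046 FPKM in Th0 and 2033 to 2132 with dopamine. Of these 12, Cd5, Cd6, Cd3d and Zap70 were called higher (0.96, 0.84, 0.48 and 0.46) and Trac lower (-0.70). RNA of other cells moved with the treatment. The 12 granulocyte and mast cell markers summed to 449 and 594 FPKM in Th0 and to 50.04 and 46.7 with dopamine, and all 8 that were tested were called lower. The 13 macrophage and dendritic cell markers summed to 426 and 571 FPKM in Th0 and to 56.6 and 57.3 with dopamine, with 9 of 10 tested called lower. Among the 10, Csf1r, Spi1, Itgax and Adgre1 were under 1 FPKM in both dopamine libraries and passed the filter through Th0 alone. That count is thus partly set by the filter. Elane, Ltf, Ly6g, C1qa and C1qb, all under the filter and at most 0.931 FPKM in Th0 (Ly6g also at 0 in Th0 3), were listed at 0 in both dopamine libraries. Of the 8 B cell markers 2 were tested and none called (summed level 15.1 and 21.4 against 21.9 and 25.2 FPKM), the 7 CD8 T and NK cell markers summed to at most 6.98 FPKM, and 7 of 8 erythroid markers, found in the tables, summed to at most 1.76. Myeloid cells also express genes of glycolysis, and the part of these cells in the differences below was not tested. In bulk RNA, fewer cells of a type and less RNA per cell cannot be told apart.

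Expression of the 36 genes was lower with dopamine nearly throughout. Of the 36, 24 fell and 0 rose by limma, where 4.39% of all tested genes were called lower and 6.28% higher. At an unadjusted p under 0.05, 31 of the 36 were lower and 0 higher, against 12.2% and 15.7% of all tested genes. The difference was negative in both pairs for 34 genes, against 32.3% of all tested genes. The median difference of the 36 was -0.70, with extremes of -2.03 (Slc2a3) and 0.26 (Pfkfb4), and the median of all tested genes was 0.03. In 33 of the 36 both dopamine libraries lay under both Th0 libraries, which was so for 25.6% of all tested genes, and in 0 of the 36 both lay above (31.4% of all tested genes). Levels set side by side across the separately made tables carry any difference in how the tables were scaled. The 36 genes together made up 1.43% and 1.25% of the FPKM of protein-coding genes in Th0 2 and Th0 3, and 0.792% and 0.777% in the dopamine libraries.

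**Figure D1:**
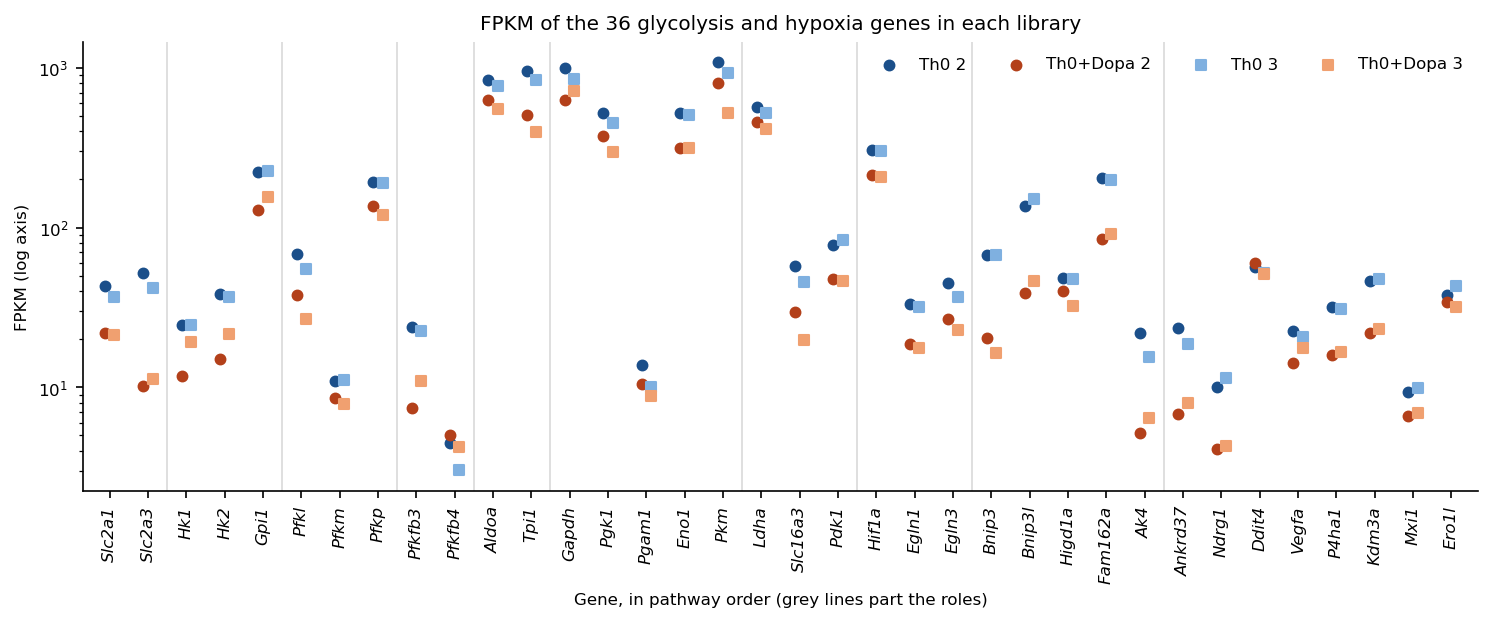
FPKM (log axis) of each of the 36 genes in the 4 libraries, in pathway order; circles are the libraries numbered 2 and squares those numbered 3, dark and light blue for Th0, red and orange for Th0+Dopa. For 33 genes both red and orange points lie under both blue points, while those of Pfkfb4, Pgam1 and Ddit4 overlap with them.

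The genes of glucose entry fell. Slc2a3 encodes GLUT3, a high-affinity glucose transporter (ENSMUSG00000003153, chromosome 6, 122727809 to 122801640). It stood at 51.8 and 42.1 FPKM in Th0 2 and Th0 3 and at 10.2 and 11.2 with dopamine. The dopamine libraries were close to each other and held 19.7% and 26.6% of the level of their Th0 partners. Its difference, -2.03 ± 0.15 (limma adjusted p = 0.00229), was the lowest of the 36. Slc2a1 encodes GLUT1, the transporter that T cells bring to the surface on activation. It went from 43.4 and 36.8 FPKM to 21.7 and 21.2, a difference of -0.87 ± 0.13 (adjusted p = 0.0152). Both transporters had groups that did not overlap, and the gap was wider for Slc2a3. In Th0 cells Slc2a3 was the more abundant of the pair, with 54.4% and 53.4% of their summed FPKM, and with dopamine it had 32.0% and 34.6%. Their summed level with dopamine was 33.6% and 41.1% of that in Th0.

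Hexokinases trap glucose in the cell as glucose 6-phosphate. Hk2, the form induced by growth signals and HIF-1, went from 38.3 and 36.6 FPKM to 14.96 and 21.6 and fell by 1.02 ± 0.17 on the log2 scale (limma adjusted p = 0.0225). Hk1, the widely expressed form, had 24.5 and 24.4 FPKM in Th0 and 11.8 and 19.2 with dopamine. The pairs of Hk1 differed in size (-0.99 and -0.33), and its difference of -0.66 ± 0.19 did not pass (adjusted p = 0.0899). Hk2 too was further from its partner in pair 2 (-1.30) than in pair 3 (-0.74). The share of Hk2 in the 2 hexokinases was 61.0% and 60.03% in Th0 and 55.85% and 52.9% with dopamine. Gpi1, the isomerase that makes fructose 6-phosphate, went from 222 and 225 FPKM to 128 and 154 (-0.67 ± 0.11, adjusted p = 0.0232).

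Phosphofructokinase is the committed step of the pathway. Its platelet-type gene Pfkp was by far the most abundant of the family, at 192 and 191 FPKM in Th0 and 136 and 119 with dopamine, and it fell by 0.58 ± 0.11 on the log2 scale (limma adjusted p = 0.0289). Pfkl, the liver type, went from 68.2 and 54.8 to 37.6 and 26.95 FPKM (-0.92 ± 0.12, adjusted p = 0.0100). Pfkm, the muscle type, was scarce, at about 11 in each Th0 library and 8.56 and 7.86 FPKM with dopamine, and its difference of -0.38 ± 0.16 did not pass (adjusted p = 0.198). Pfkp held 70.8% and 74.3% of the family's FPKM in Th0 and 74.7% and 77.4% with dopamine, so its place as the main form was the same in each library. The summed level of the family with dopamine was 67.2% and 59.99% of that in Th0.

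The bifunctional PFKFB enzymes set the level of fructose 2,6-bisphosphate, which activates phosphofructokinase. Of the 2 forms 1 fell. Pfkfb3, whose product favours the kinase reaction, went from 23.9 and 22.5 FPKM to 7.42 and 10.95 (-1.27 ± 0.19, limma adjusted p = 0.0157). Pfkfb4 had 4.50 and 3.02 FPKM in Th0 and 5.05 and 4.25 with dopamine, overlapping groups with a difference of 0.26 ± 0.22 (adjusted p = 0.494). It was the 1 gene of the 36 with a positive difference in both pairs. Its share of the 2 forms was 15.9% and 11.8% in Th0 and 40.5% and 27.95% with dopamine.

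The later steps of the pathway held the most abundant transcripts. Tpi1, the isomerase that joins the 2 triose phosphates, went from 952 and 835 FPKM to 509.8 and 399 and had the largest fall of these enzymes (-0.98 ± 0.11, limma adjusted p = 0.00749). Aldoa, the aldolase that splits the hexose, had 838 and 765 FPKM against 628 and 551 with dopamine. The groups of Aldoa did not overlap, but its difference of -0.44 ± 0.11 did not pass (adjusted p = 0.0582). It passed with a pseudocount of 0.1 (adjusted p = 0.0421), with a common sum (-0.70), with a common protein-coding sum (-0.57) and with differences corrected for GC content and length (-0.69, adjusted p = 0.0140). Gapdh, the dehydrogenase often used as a reference gene, had 1003 and 853 FPKM in Th0 and 628 and 712 with dopamine. It was at 62.6% of its Th0 partner in pair 2 and at 83.4% in pair 3, and did not pass either (-0.47 ± 0.14, adjusted p = 0.0965). With a common sum Gapdh passed (-0.72, adjusted p = 0.0227).

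Pgk1, a kinase that makes ATP in the pathway, fell from 518 and 449 FPKM to 374 and 299 (-0.53 ± 0.11, limma adjusted p = 0.0365). Eno1, enolase, went from 519.6 and 506 to 315 and 314 FPKM (-0.70 ± 0.10, adjusted p = 0.0151). Pkm, the pyruvate kinase gene, went from 1082 and 923 to 798.5 and 523 FPKM (-0.63 ± 0.14, adjusted p = 0.0439). These 3 had dopamine libraries under both Th0 libraries, with the values of Eno1 almost the same in the 2 dopamine libraries. Pgam1, the mutase between Pgk1 and Eno1, had low values beside its neighbours. It was listed at 13.8 and 10.1 FPKM in Th0 and 10.4 and 8.87 with dopamine. Its groups overlapped and it did not pass (-0.27 ± 0.16, adjusted p = 0.338).

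Copies of some of these genes elsewhere in the genome could share their reads. Among GENCODE M21 transcripts Gapdh had 77 near-identical copies (at least 95% identity over at least 200 bases), of which 50 were in the tables and together had 10.2 to 18.2 FPKM, at most 2.13% of Gapdh itself. Bnip3, with 1 copy in the tables, had up to 10.5% of its own level in it, and Ak4, also with 1, up to about 11%. For the other members with copies in the tables (Gpi1, Pgk1, Pgam1, Eno1, Bnip3l, Higd1a and Ndrg1) this was at most 3.11%. The sources used here do not say how reads that map to several places were counted, so the levels of genes with copies are uncertain. Reads left out of both a gene and its copy would show in neither. That holds for the low values of Pgam1 too, whose 1 copy reached 100% identity.

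Of the 3 genes for the fate of pyruvate and lactate among the 36, 2 fell. Ldha, the lactate dehydrogenase subunit A gene, had 571 and 518 FPKM in Th0 and 459.7 and 416 with dopamine. Both pairs gave almost the same small value, 80.5% and 80.3% of Th0, and the difference of -0.31 ± 0.10 did not pass (limma adjusted p = 0.121). Ldha passed with a common sum (-0.57, adjusted p = 0.0131) and with a common protein-coding sum (-0.44, adjusted p = 0.0418). Slc16a3 (MCT4), the lactate exporter of cells with high glycolysis, fell from 57.7 and 45.4 FPKM to 29.6 and 19.7 (-1.05 ± 0.12, adjusted p = 0.00831). Pdk1, the kinase that keeps pyruvate out of the mitochondrion by blocking pyruvate dehydrogenase, fell from 77.7 and 83.8 to 47.5 and 46.5 FPKM (-0.77 ± 0.11, adjusted p = 0.0146). From hexokinase to lactate dehydrogenase, 8 of the 14 enzyme genes fell and 0 rose, with a median of -0.61. Their summed FPKM with dopamine was 67.1% and 66.1% of that in Th0, and their share of protein-coding FPKM went from 1.17% and 1.00% to 0.671% and 0.647%.

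**Figure D2:**
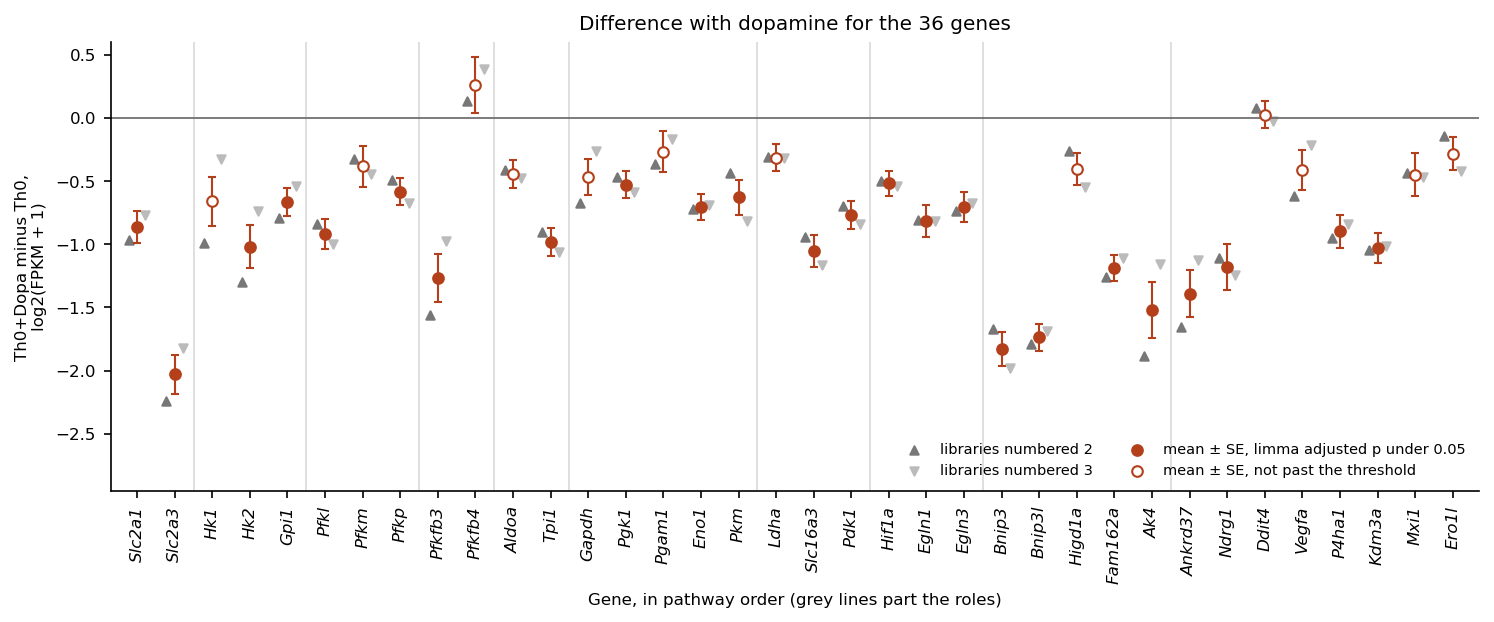
Difference between Th0+Dopa and Th0 on the log2(FPKM + 1) scale for the 36 genes in pathway order; grey triangles are the 2 pairs, circles with bars the mean ± SE, filled where the limma adjusted p was under 0.05. The 24 filled circles all lie under 0, from -2.03 for Slc2a3 to -0.52 for Hif1a.

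Hif1a itself and both of its prolyl hydroxylases among the 36 fell. Hif1a (ENSMUSG00000021109, chromosome 12, 73901375 to 73947530) had 304 FPKM in each Th0 library and 215 and 208.5 with dopamine. The replicates were close in both groups, at 70.7% and 68.7% of Th0 (-0.52 ± 0.10, limma adjusted p = 0.0337). After a correction of the differences for GC content and transcript length it had -0.32 and did not pass (adjusted p = 0.0813), the 1 call among the 36 that this correction ended, while Aldoa was the 1 that it added. Egln1 (PHD2), the main oxygen sensor of HIF-1α, went from 33.4 and 31.7 FPKM to 18.6 and 17.6 (-0.81 ± 0.12, adjusted p = 0.0172). Egln3 (PHD3), itself a strong HIF target, went from 45.1 and 37.0 to 26.7 and 22.8 FPKM (-0.71 ± 0.12, adjusted p = 0.0229). Egln1 and Egln3 kept nearly the same ratio, with Egln1 at 42.55% and 46.2% of the 2 in Th0 and 41.1% and 43.6% with dopamine.

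HIF targets that act at the mitochondrion held several of the widest gaps. Bnip3 and Bnip3l are receptors that mark mitochondria for removal by autophagy. Bnip3 went from 67.5 and 67.8 FPKM to 20.5 and 16.4 (-1.83 ± 0.13, limma adjusted p = 0.00188). Bnip3l was the more abundant, going from 136 and 151 to 38.7 and 46.3 FPKM (-1.74 ± 0.11, adjusted p = 0.00111, the lowest of the 36). With dopamine the 2 together stood at 29.1% and 28.7% of Th0, nearly the same in both pairs. Fam162a, a mitochondrial protein induced by HIF-1, went from 203 and 199 to 84.4 and 91.7 FPKM (-1.19 ± 0.10, adjusted p = 0.00357). Ak4, an adenylate kinase of the mitochondrial matrix, fell from 21.8 and 15.5 to 5.18 and 6.39 FPKM (-1.52 ± 0.22, adjusted p = 0.0147). The exception was Higd1a, a respiratory chain assembly factor, with 48.2 and 47.5 FPKM in Th0 and 40.0 and 32.1 with dopamine (-0.41 ± 0.13, adjusted p = 0.107). With a common sum Higd1a passed (-0.66, adjusted p = 0.0295).

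The other 8 HIF targets split evenly, with 4 that fell and 4 that did not pass. Ankrd37, an ankyrin repeat gene with a strong response to hypoxia, went from 23.5 and 18.6 FPKM to 6.80 and 7.98 (-1.39 ± 0.19, limma adjusted p = 0.0117). Ndrg1, a stress-responsive gene, went from 10.1 and 11.5 to 4.13 and 4.27 FPKM (-1.18 ± 0.18, adjusted p = 0.0180). Kdm3a, a histone H3K9 demethylase, fell from 46.0 and 47.7 to 21.8 and 23.1 FPKM (-1.03 ± 0.12, adjusted p = 0.00748). P4ha1, a subunit of the collagen prolyl hydroxylase, fell from 31.9 and 30.8 to 15.99 and 16.7 FPKM (-0.90 ± 0.13, adjusted p = 0.0147). In these 4 genes each dopamine library was at most 54.3% of its Th0 partner.

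The 4 that did not pass were Vegfa, Mxi1, Ero1l and Ddit4. Vegfa, the angiogenic growth factor, had 22.4 and 20.6 FPKM in Th0 and 14.2 and 17.6 with dopamine (-0.42 ± 0.16, limma adjusted p = 0.159). Mxi1, an antagonist of MYC, stood at 71.2% and 69.6% of Th0, and Ero1l, an oxidase of protein folding in the endoplasmic reticulum, at 90.4% and 73.9%. Ddit4 (REDD1), an inhibitor of mTORC1 that is induced by HIF-1, glucocorticoids and several stresses, had 56.6 and 51.8 FPKM in Th0 and 59.6 and 51.05 with dopamine. Its groups overlapped and its difference was 0.03 ± 0.11 (adjusted p = 0.906), with a sign that turned under other scalings (-0.22 with libraries scaled to a common sum). It was the 1 gene with overlapping groups among the 13 HIF targets at the mitochondrion and elsewhere. Over these 13 the median was -1.03, against -0.61 over the 14 enzymes. Markers of granulocytes and mast cells had a median of -3.27 in the same libraries and those of macrophages and dendritic cells one of -1.99.

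The size of the difference varied among the 36 genes in much the same order in both pairs, with a Spearman's rho of 0.824 and a Pearson's r of 0.848 across the 36 genes (given as a description, since genes of one library share its scaling and are not independent). The most abundant genes were not those with the widest gaps, but over all 36 mean FPKM and difference were hardly related (Spearman's rho 0.083). The 7 genes with a mean above 300 FPKM (Aldoa, Tpi1, Gapdh, Pgk1, Eno1, Pkm and Ldha) had differences from -0.98 to -0.31 with a median of -0.53, and the other 29 a median of -0.81. In both pairs 9 genes were under 50% of Th0. They were Slc2a3, Pfkfb3, Bnip3, Bnip3l, Fam162a, Ak4, Ankrd37, Ndrg1 and Kdm3a, and 3.78% of all tested genes met the same bound.

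**Figure D3:**
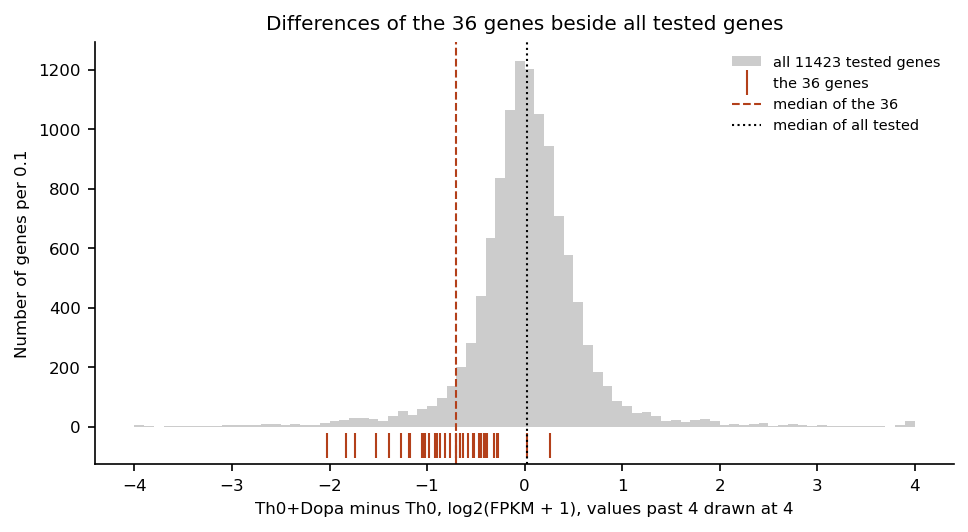
Histogram of the difference (log2(FPKM + 1), Th0+Dopa minus Th0) over all 11423 tested genes, with a tick for each of the 36 genes. The 36 have a median of -0.70 and all genes a median of 0.03, and 2 of the ticks lie above 0.

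Neighbouring pathways, from lists chosen with results of these data known, are given for comparison. Of 101 tested genes in 9 such lists 9 fell and 8 rose, against 4.39% and 6.28% of all tested genes. Other isozymes and lactate genes had 1 lower and 1 higher of 14 tested. The 1 higher was Slc16a1 (MCT1), the lactate transporter that works in both directions, which rose from 50.9 and 49.6 FPKM to 73.7 and 70.8 (0.52 ± 0.11, limma adjusted p = 0.0398). Scaling all libraries to one common sum ended this call (0.26, adjusted p = 0.234), and so did a common protein-coding sum (0.39). Set beside Slc16a3, a comparison made after the values were seen, the sum of the 2 lactate transporters with dopamine was 95.2% and 95.3% of Th0. The share of Slc16a1 in that sum was 46.9% and 52.2% in Th0 and 71.35% and 78.2% with dopamine. The 1 lower was Hk3, a hexokinase known from myeloid cells, at 3.47 and 7.18 FPKM in Th0 and 0.612 and 1.06 with dopamine (-1.73 ± 0.28, adjusted p = 0.0214).

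**Figure D4:**
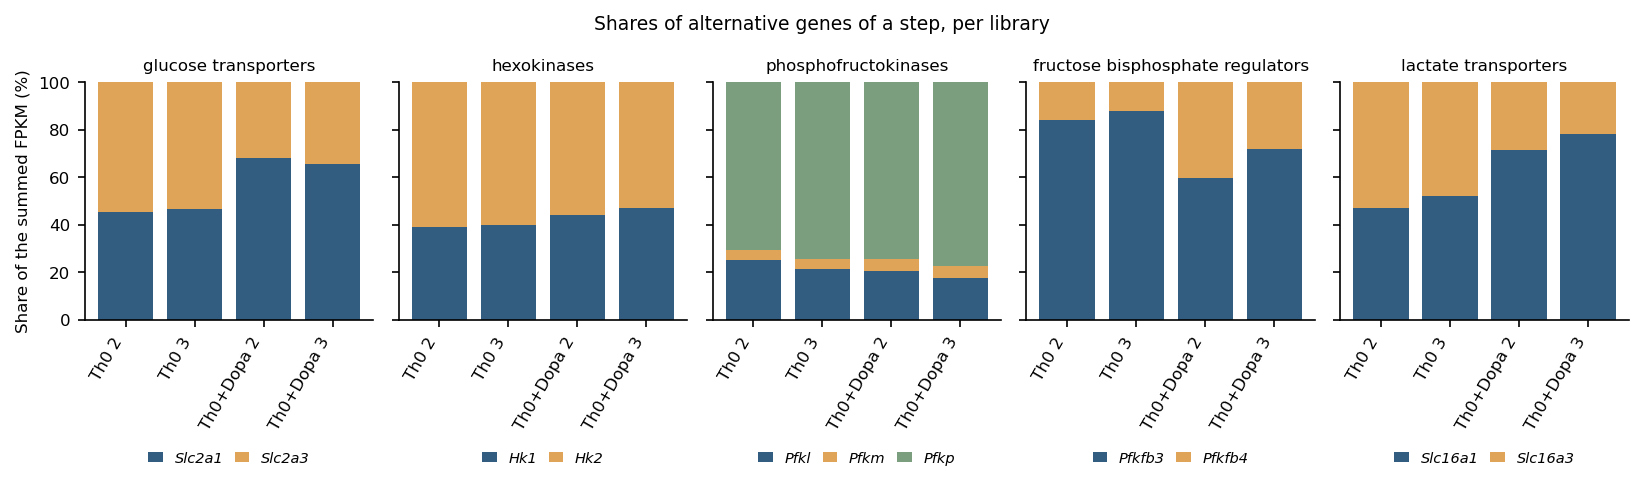
Share (%) of each gene in the summed FPKM of the genes for a step, 1 bar per library. In the dopamine libraries Slc2a3, Pfkfb3 and Slc16a3 take smaller shares than in the Th0 libraries (Slc2a3 32.0% and 34.6% against 54.4% and 53.4%), while Pfkp stays the main phosphofructokinase gene in all 4.

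The pentose phosphate pathway, which branches off at glucose 6-phosphate to make NADPH and ribose, had 3 of 11 genes higher, 0 lower and a median of 0.31. H6pd, the glucose 6-phosphate dehydrogenase of the endoplasmic reticulum, went from 5.32 and 6.02 FPKM to 10.8 and 15.4 (1.06 ± 0.18, limma adjusted p = 0.02405). Pgls and the transketolase gene Tkt rose by 0.77 ± 0.15 and 0.51 ± 0.10 (adjusted p = 0.0347 and 0.0385). Scaling to a common sum ended all 3 calls, with 0.83 for H6pd, 0.52 for Pgls and 0.26 for Tkt. The GC and length correction ended them too, with 0.87 for H6pd (adjusted p = 0.0507), 0.20 for Pgls and 0.38 for Tkt. Pck2, the mitochondrial enzyme that makes phosphoenolpyruvate, rose from 2.64 and 3.40 to 8.29 and 9.46 FPKM (1.30 ± 0.20, adjusted p = 0.0170), the 1 call among 3 tested genes of gluconeogenesis. Of 11 tested genes for the entry of pyruvate into mitochondria 1 was called, the pyruvate carrier subunit Mpc2 (0.64 ± 0.12, adjusted p = 0.0281). Mpc2 did not pass with the common sum (0.39) or with a common protein-coding sum (0.51). Glycogen metabolism had 2 of 10 lower. They were Pgm1, the phosphoglucomutase (-0.67 ± 0.12, adjusted p = 0.0272), and the glycogen phosphorylase Pygl, known from liver and myeloid cells (-1.73 ± 0.26, adjusted p = 0.0165). Pygl was at 4.72 and 5.81 FPKM in Th0 and at 0.834 and 0.919 with dopamine, so it passed the filter through Th0 alone. Of 3 tested glucose transporters outside the 36 none was called.

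HIF targets outside the 36 had 5 of 22 tested genes lower and 0 higher, with a median of -0.38. Plod2, a collagen lysyl hydroxylase, went from 8.67 and 9.61 FPKM to 2.75 and 2.74 (-1.44 ± 0.20, limma adjusted p = 0.0139). Hilpda, a lipid droplet protein induced by hypoxia, went from 40.2 and 36.8 to 17.7 and 14.7 FPKM (-1.20 ± 0.13, adjusted p = 0.00613). The other 3 were the transcription factor Bhlhe40, the hydroxylase Jmjd6 and the transferrin receptor Tfrc (-0.93 ± 0.15, -0.65 ± 0.11 and -0.49 ± 0.11), and the correction for GC content and length ended the call of Tfrc (adjusted p = 0.119). Not every target was lower. Mif, the most abundant of the 22, was higher in both pairs but did not pass (0.37 ± 0.12, limma adjusted p = 0.1075). It had 930 and 715 FPKM in Th0 and 1252 and 885 with dopamine. Adm, Car9 and Nos2, other textbook targets, lay under the filter. Of 14 tested regulators of the HIF pathway 1 was called, Elob, a subunit of the VHL ubiquitin ligase, which was higher (0.56 ± 0.12, adjusted p = 0.0403) but did not pass with the common sum (0.31) or once GC content and length were corrected for (0.13, adjusted p = 0.406). The dimer partner Arnt, the ligase gene Vhl and the third prolyl hydroxylase gene Egln2 had -0.19 ± 0.18, -0.41 ± 0.15 and 0.56 ± 0.16 and did not pass (adjusted p = 0.527, 0.154 and 0.0836).

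Among 13 tested genes of nutrient and growth control 1 fell and 1 rose. Txnip, an inhibitor of glucose uptake whose transcription follows glucose metabolites, fell from 70.5 and 65.9 FPKM to 17.9 and 19.9 (-1.80 ± 0.13, limma adjusted p = 0.00179). Irf4, a factor that T cells need for glycolytic expansion, rose by 0.51 ± 0.11 (adjusted p = 0.0419). Irf4 did not pass with the common sum (0.26) or with a common protein-coding sum (0.38). Myc, the other main driver of glycolytic genes in activated T cells, had 59.5 and 56.7 FPKM in Th0 and 50.9 and 69.96 with dopamine, overlapping groups with a difference of 0.04 ± 0.15 (adjusted p = 0.903).

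**Figure D5:**
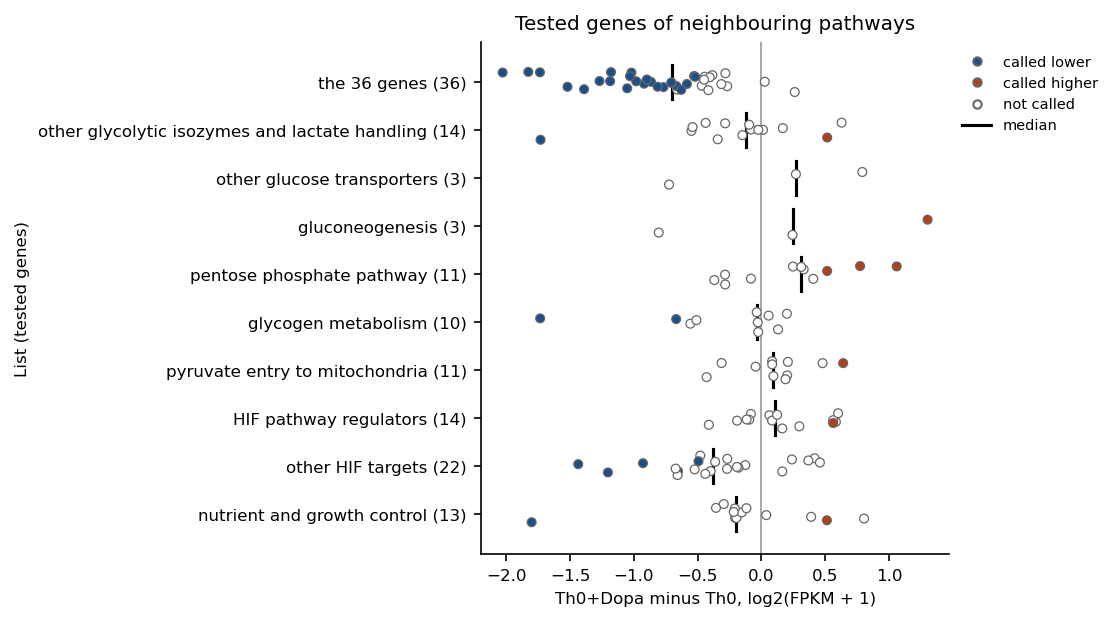
Difference (log2(FPKM + 1), Th0+Dopa minus Th0) of each tested gene in the 36 and in 9 lists of neighbouring pathways, with the number tested in brackets; blue points were called lower, red points higher, open points neither, and black bars are medians. The 36 have 24 blue points and no red one, and the pentose phosphate list has 3 red points and no blue one.

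The calls rest on few libraries. Fits with a library left out also used median-of-ratios scaling and did not take differences within a table. With all 4 libraries, 15 of the 36 fell in such a fit. With any 1 of the 4 libraries left out 0 of the 36 were called by limma (lowest adjusted p = 0.0882 to 0.117), and 20 to 27 were lower at an unadjusted p under 0.05, against 6.09% to 11.5% of all tested genes. Of all 11423 genes 0 to 9 were then called lower and 0 to 13 higher. In these fits 34 or 35 of the 36 still had a negative difference, and the median lay between -0.81 and -0.70.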

How the data were processed

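RNA from 4 libraries of cultured mouse CD4+ T cells was measured. Per the labels' protocols, libraries were stranded total RNA depleted of ribosomal RNA and globin mRNA, so they also hold RNA without a poly(A) tail. The authors deposited FPKM in 2 separately made tables, libraries numbered 2 in one and 3 in the other. Per the submitters' processing notes the tools were STAR 2.4.2 and Cufflinks 2.2.1 (mm10 build), with Trimmomatic 0.35, FastQC 0.10.1 and bcl2fastq 1.8.4. Which annotation, strand setting and normalization options were used is not given here.

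GENCODE M21 (GRCm38, the mm10 build) named 36423 of 38282 IDs. Every gene whose mean was 1 FPKM or more was tested on log2(FPKM + 1), with a pseudocount of 1, by limma 3.58.1 (R 4.3.3; lmFit, eBayes with trend), two-sided, with the table as a block and Benjamini-Hochberg adjustment over all 11423 genes. The fit leaves 1 residual degree of freedom and the prior adds 4.70. It was tried on simulated data, where it missed part of the changes put in and some calls were false. A gene that did not pass is thus not shown to be unchanged. Counts were not used. Low values of single-transcript genes lay near whole multiples of 1 fragment (91.3% to 92.6% within 0.15), 1 fragment per kilobase being worth 0.15 to 0.203 FPKM, which gave the estimate of depth. Copies were sought with blastn 2.17.0. Promoters are from RefSeq.

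The members, the lists and the tests were chosen with earlier results of these data known. Values are given for each member called, for Hif1a, Slc2a1, Hk1, Gapdh and Vegfa, and for up to 2 genes called highest and lowest in each list, and others were named after their values were seen. Set tests were not used. As alternatives, the pseudocount, the filter, the scaling, the limma trend and the block were varied, libraries were left out in turn, and differences were corrected for GC content and length by loess (span 0.3).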

Additional observations from a re-analysis of the deposited data

How the results depend on the processing

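The count of the 36 genes called lower was 24, and it was 24 to 28 under both other pseudocounts (0.1 and 0.5), a filter at a mean of 5 FPKM, the 3 scalings and the GC and length correction. It was 7 with no filter, which tests 17839 genes, 3 with no trend in limma (Slc2a3, Bnip3 and Bnip3l), and 0 with any library left out. The count called higher was 0 in each of these fits. The median of the 36 was -0.96 with a common sum, -0.83 with a common protein-coding sum, -0.75 after the GC and length correction, and -0.81 to -0.70 with a library left out. Ddit4 turned sign, to -0.22 with a common sum, -0.10 with a common protein-coding sum, -0.00046 with median-of-ratios scaling (also without the block), -0.20 after the GC and length correction, and -0.12 and -0.072 without Th0+Dopa 2 and Th0 3 (-0.12 to 0.12 over the 4 left-out libraries).

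Over all genes 501 were lower and 717 higher. These counts were 104 and 173 with no filter, 1064 and 376 with a common sum, 574 and 422 with a common protein-coding sum, 150 and 106 with no trend, 385 and 423 after the GC and length correction, and 0 to 9 and 0 to 13 with a library left out. The share of calls that were higher went from 58.9% to 26.1% with the common sum, under which the median of all genes was -0.20 against 0.03. Of the neighbouring lists 9 genes were lower and 8 higher, and these counts were 2 and 0 with no filter, 16 and 2 with a common sum, 3 and 1 with no trend, and 0 and 0 with a library left out, while 4 were higher with a common protein-coding sum.

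The block stands for the separate tables. Without the replicate block (median-of-ratios scaling) 15 of the 36 were lower, 244 of all genes lower and 199 higher, and 5 and 1 in the neighbouring lists. The library numbers served as the block, and for the pairs, because each number is also a table. Deviations of same-numbered libraries correlated at only 0.0869, and no shared culture or mouse was assumed. Fits that left out a library also had median-of-ratios scaling and no block, so their results are to be set beside those without the block. In those fits a lone library was assumed to vary like the other group. The cause of these changes was not tested, except that a filter changes how many genes are tested.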
